A study of Mus musculus with 4 samples.

Results

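Karyopherins are the carriers that move proteins and RNA-protein particles through nuclear pores, and 10 of their genes are described here in mouse 2-cell embryos cultured with or without dimethyl sulfoxide (DMSO). The genes were taken by symbol from the deposited table, and all 10 were found among its 30049 Ensembl genes. They comprise 6 importin-alpha genes (Kpna1, Kpna2, Kpna3, Kpna4, Kpna6 and Kpna7), 2 import receptors (Kpnb1 and Tnpo1) and 2 exportins (Xpo1 and Cse1l). Control embryos were wild-type BDF1*BDF1 F2 zygotes, collected 18 h after the hCG injection by the labels and kept for 24 h in the embryo culture medium KSOM. DMSO-treated embryos had the same origin and the same 24 h of culture, with 2% DMSO in the medium. There were 2 libraries of pooled embryos in each group, and 50 embryos were used for a group, without a statement of how they were divided between its libraries. Since nothing says that the libraries came from separate cultures, p-values measure only the spread between these 4 libraries, which may be technical.

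Import of proteins with a classical nuclear localisation signal needs an importin alpha, which binds the signal, and importin beta (Kpnb1), which docks at the pore. In the nucleus, Ran bound to GTP frees the cargo, and Cse1l carries the emptied importin alpha back to the cytoplasm. Xpo1 exports proteins with leucine-rich export signals, and Tnpo1 imports RNA-binding proteins directly, without an importin alpha. Kpna7 is the importin alpha of oocytes and early embryos, while the other importin-alpha genes are used in many somatic tissues. In the early embryo these carriers bring maternally stored proteins into the pronuclei and into the nuclei that begin transcription.

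Values are TPM, the share of each gene among the transcripts of a library after correction for their length, so that levels of different genes can be set side by side. Pairs of values follow the order of replicates 1 and 2. TPM values keep no depth, and the depth behind each value is therefore unknown. Column totals were 768174 and 780527 TPM for controls, against 772487 and 799166 TPM with DMSO. In pooled embryos, fewer cells holding an RNA and less of it per cell cannot be told apart, and TPM give only a gene's share of the RNA counted. The labelled stage was checked against its markers. The 6 genes of the 2-cell embryo, with Tcstv3 the most abundant, summed to 709 and 485 TPM in controls against 2057 and 1499 TPM with DMSO. The 10 oocyte and egg genes summed to 12742 and 16058 TPM in controls against 13676 and 17419 TPM with DMSO, most of it from Dppa3 alone (11639 and 15346 against 10828 and 15216 TPM). The other 9 summed to 1103 and 712 TPM in controls against 2848 and 2203 TPM with DMSO. Of the 10, 6 had both DMSO libraries above both controls, Zp3 and Mos had both below, and Nlrp5, which is abundant in oocytes, was below 1 TPM in all 4 libraries. Such separation is common with 2 libraries in each group. Over all genes averaging 1 TPM or more, 31.1% had both DMSO libraries above both controls and 38.7% had both below. Cumulus and granulosa cells could adhere to embryos. Of their 9 markers, 7 were below 1 TPM in all libraries, Amh was listed at 0, and the 9 together reached at most 2.58 TPM. The part of any of these cells, or of those that follow, in the results was not tested. The 3 oviduct genes, led by Ovgp1, summed to 19.7 and 22.3 TPM in controls against 28.2 and 36.6 TPM with DMSO. The 4 sperm genes, led by Prm2 and with Tnp2 listed at 0, summed to 2.84 and 3.38 TPM in controls against 13.4 and 8.48 TPM with DMSO, and limma called Prm2 and Tnp1 higher. Tnp1, at 0.281 and 0 TPM in controls against 2.08 and 1.69 TPM with DMSO, passed the filter of a mean of 1 TPM only through the DMSO group, so its call is no support. The 2 blood genes, led by Hba-a1, were at most at 4.32 TPM together.

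Promoter sequence is given first for Kpna7, the oocyte gene, and for Xpo1 and Kpnb1, which were lower in both DMSO libraries than in both controls, because the base composition of the first differs from that of the others. The table of RefSeq promoters used here (GRCm38.p6) matched 6 of the 10 members. The 250 bases before the start of each are printed 5′ to 3′ on the gene's strand, with every CpG dinucleotide in capitals. They lie at chr5:145009637-145009886 (minus strand) for Kpna7, chr11:23255791-23256040 (plus strand) for Xpo1 and chr11:97187893-97188142 (minus strand) for Kpnb1.
Kpna7: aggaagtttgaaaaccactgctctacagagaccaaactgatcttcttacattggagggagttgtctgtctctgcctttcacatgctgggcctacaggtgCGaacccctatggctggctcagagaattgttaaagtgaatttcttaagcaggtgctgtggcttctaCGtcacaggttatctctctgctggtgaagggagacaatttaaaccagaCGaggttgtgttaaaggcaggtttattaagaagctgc
Xpo1: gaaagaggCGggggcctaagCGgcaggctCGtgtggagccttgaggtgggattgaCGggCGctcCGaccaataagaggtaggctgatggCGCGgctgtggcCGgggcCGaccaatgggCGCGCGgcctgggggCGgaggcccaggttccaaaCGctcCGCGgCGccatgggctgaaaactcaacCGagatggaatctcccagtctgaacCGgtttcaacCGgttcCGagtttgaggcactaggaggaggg
Kpnb1: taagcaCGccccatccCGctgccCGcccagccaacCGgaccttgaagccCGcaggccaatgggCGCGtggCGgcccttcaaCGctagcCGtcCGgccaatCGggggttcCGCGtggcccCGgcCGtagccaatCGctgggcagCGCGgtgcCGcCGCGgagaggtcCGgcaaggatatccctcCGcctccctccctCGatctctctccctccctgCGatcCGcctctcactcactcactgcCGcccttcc

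The Kpna7 window held 3 CpG, and 29.0% of 32841 mouse promoters of this length held fewer, the median being 6. The windows of Xpo1 and Kpnb1 held 22 and 28 CpG, and 85.2% and 92.4% of promoters held fewer. Kpna2 and Kpna4 had 16 and 24 CpG, and the pair of Tnpo1 promoters 12 and 33. Short motifs, each spelled out here, were searched on both strands. CCAAT was found in the windows of Kpna7 (1 match), Kpna2 (1), Kpna4 (2), Xpo1 (2) and Kpnb1 (3), and it occurs in 33.9% of all promoters. GGGCGG, the GC box, was not found for Kpna7 but occurred in the windows of Kpna2, Kpna4, Xpo1 and Kpnb1 and in a Tnpo1 window, against 32.7% of all promoters. TATAAA (12.4% of promoters) and CACGTG (6.02%) had no match in any of these windows. Each GGGCGG or CACGTG also contains a CpG, and a match in these letters is not a shown binding site. The RefSeq start of Kpna7 lies inside the longer Kpna7 gene of GENCODE M21 (chromosome 5, 144983519 to 145084030, minus strand).

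In control embryos the most abundant of the 10 RNAs were Kpna2 at 287 ± 105 TPM and Xpo1 at 271 ± 28.7 TPM (SD, n = 2), which overlapped. Kpnb1 (129 ± 23.6 TPM), Kpna3 (88.4 ± 29.3 TPM) and Cse1l (39.4 ± 3.78 TPM) followed without overlap between neighbours (SD, n = 2). Tnpo1 (24.3 ± 1.97 TPM) and Kpna4 (23.9 ± 2.08 TPM) overlapped, as did Kpna1 (14.2 ± 0.572 TPM) and Kpna7 (9.73 ± 7.18 TPM), and Kpna6 was lowest at 4.12 ± 0.527 TPM (SD, n = 2). In DMSO-treated embryos the highest means were those of Kpna2 at 232 ± 108 TPM and Kpna3 at 180.0 ± 71.2 TPM (SD, n = 2), which overlapped, Kpna3 being the higher of them in DMSO replicate 1. Xpo1 (109.9 ± 15.2 TPM) and Kpnb1 (66.5 ± 8.05 TPM) followed without overlap between neighbours (SD, n = 2). Kpna7 (48.5 ± 36.9 TPM, SD, n = 2) had the next mean, at rank 5 after rank 9 in controls, but it overlapped Kpnb1, Kpna1, Tnpo1, Cse1l and Kpna4, and in DMSO replicate 2 it lay below Tnpo1 and Cse1l. The ratio of Xpo1 to Kpna3 TPM, which does not depend on the scaling between libraries, was 2.30 and 4.31 in controls against 0.430 and 0.930 with DMSO. This ratio was chosen after the values were seen.

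**Figure D1:**
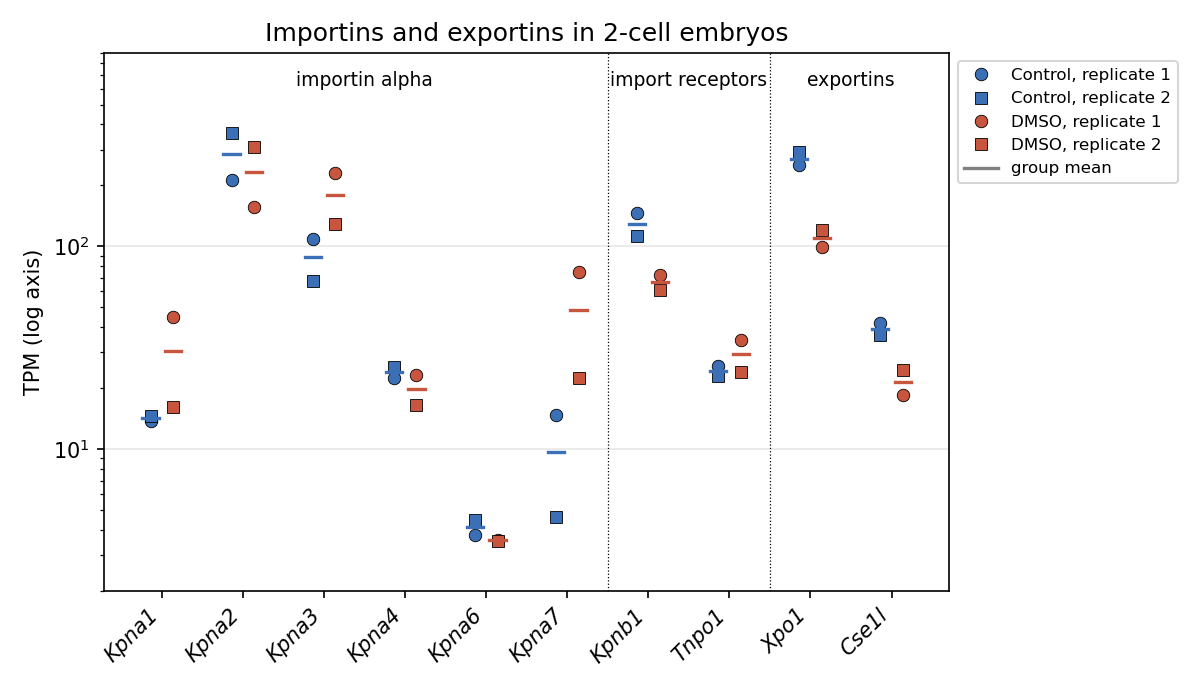
TPM of the 10 importin and exportin genes in each library on a log axis, grouped by role, with circles for replicate 1, squares for replicate 2 and a bar for each group's mean. Kpna7, Kpna3 and Kpna1 had both DMSO libraries above both control libraries, and Kpnb1, Xpo1, Cse1l and, by a small margin, Kpna6 had both below.

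Of the 10 genes, 1 was called in the comparison of DMSO-treated with control embryos, and it was lower. limma compared the groups on log2(TPM + 1), the scale of every difference given for a gene, and an adjusted p-value under 0.05 was a call. The background was 14.1% of 12038 genes called lower and 6.42% called higher, so that 1 of 10 called lower and 0 called higher is not more than the table as a whole gave. In numbers of genes, 1697 were called lower and 773 higher, and after quantile normalization 1121 and 1076. At an unadjusted p-value under 0.05 limma gave 5 of the 10, 3 lower and 2 higher, against 40.2% of all genes tested. Both DMSO libraries were below both controls for 4 members and above them for 3, where 38.7% and 31.1% of all genes tested were so. The median log2 difference was -0.22 over the 10 members and -0.09 over all genes tested. Of the 10 differences, 6 were below 0 and 4 above it, and over all 12038 genes tested 6401 were below 0.

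The called gene was Xpo1 (ENSMUSG00000020290, chromosome 11 of GRCm38 from 23256041 to 23298249), the main export receptor for proteins. It was at 251 and 292 TPM in controls against 99.1 and 121 TPM with DMSO. The groups lay far apart compared with their own spread. Its mean was 2.47-fold lower in DMSO-treated embryos, a log2(TPM + 1) difference of -1.30 (standard error 0.26, limma adjusted p = 0.0250). Without any 1 library the difference lay between -1.44 and -1.16. The limma adjusted p was 0.0787 without control replicate 1, 0.177 without control replicate 2, 0.0946 without DMSO replicate 1 and 0.0380 without DMSO replicate 2, in fits with 1 residual degree of freedom, and it was 0.102 with no filter on low values.

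Cse1l (ENSMUSG00000002718, chromosome 2 from 166906040 to 166946389), the exportin that recycles importin alpha, was at 42.0 and 36.7 TPM in controls against 18.4 and 24.7 TPM with DMSO. Both DMSO libraries lay below both controls, with a log2(TPM + 1) difference of -0.85 (standard error 0.29, limma adjusted p = 0.0774). Kpnb1 (ENSMUSG00000001440, chromosome 11 from 97159714 to 97187881), importin beta, was at 146 and 113 TPM in controls against 72.2 and 60.8 TPM with DMSO. The groups did not overlap here either, and the difference was -0.94 (standard error 0.27, limma adjusted p = 0.0527), just outside the threshold. With the test limited to genes averaging 5 TPM or more, the limma adjusted p of Kpnb1 was 0.0382, and without any 1 library it lay between 0.120 and 0.246. Tnpo1 (ENSMUSG00000009470, chromosome 13 from 98839019 to 98926384), the receptor that imports RNA-binding proteins such as hnRNP A1, was at 25.7 and 22.9 TPM in controls against 34.7 and 24.0 TPM with DMSO. Its groups overlapped, and the difference of 0.24 had a 95% confidence interval from -0.48 to 0.97.

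Kpna7 (ENSMUSG00000038770) had the largest difference of the 10. It was at 14.8 and 4.65 TPM in controls against 74.6 and 22.4 TPM with DMSO. Both DMSO libraries were above both controls, but replicates of the same group also differed, by 3.18 times in the controls and 3.33 times in the DMSO group, replicate 1 being the higher in each. The mean was 4.99-fold higher in DMSO-treated embryos, and the log2(TPM + 1) difference was 2.15 (standard error 0.68, 95% confidence interval 0.54 to 3.77, limma adjusted p = 0.0647), which missed the threshold. Without any 1 library the difference lay between 1.31 (without DMSO replicate 1) and 3.0, and it was 1.41 without control replicate 2. With the test limited to genes averaging 5 TPM or more, the limma adjusted p was 0.0461, and with no filter it was 0.213. It was 0.0599 without control replicate 1, 0.290 without control replicate 2, 0.248 without DMSO replicate 1 and 0.0383 without DMSO replicate 2 (limma). Among the oocyte markers, Bmp15 and Oosp1 were called higher by limma, with log2(TPM + 1) differences of 2.36 (adjusted p = 0.0221) and 1.43 (adjusted p = 0.0273), and 0 of the 9 tested were called lower. Zp3, Mos and Dppa3, the most abundant, had differences of -0.42, -0.54 and -0.06. Those of Zp1, Zp2, Gdf9 and Zar1 were 0.96, 0.85, 0.95 and 0.96, also without a call. Among the 6 markers of the 2-cell embryo, limma called 4 higher. Over all genes tested 6.42% were called higher, and the part of these markers in the Kpna7 values was not tested.

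Kpna3 (ENSMUSG00000021929, chromosome 14 from 61365211 to 61439874), an importin alpha of somatic tissues, was at 109 and 67.7 TPM in controls against 230.3 and 129.6 TPM with DMSO. Its difference was 1.0 (standard error 0.38, limma adjusted p = 0.101), and it was 0.59 without DMSO replicate 1 and 0.66 without control replicate 2. Kpna1 (ENSMUSG00000022905, chromosome 16 from 35978750 to 36037131) was at 13.8 and 14.6 TPM in controls against 45 and 16.1 TPM with DMSO. The groups of Kpna1 did not overlap, yet its difference of 0.88 (limma adjusted p = 0.208) came mostly from DMSO replicate 1, without which it was 0.17, and without DMSO replicate 2 it was 1.6 (limma adjusted p = 0.0378). Kpna4 (ENSMUSG00000027782, chromosome 3 from 69067149 to 69127113) was at 22.4 and 25.4 TPM in controls against 23.3 and 16.5 TPM with DMSO. Kpna6 (ENSMUSG00000003731, chromosome 4 from 129643980 to 129672767) was at 3.75 and 4.50 TPM and at 3.56 and 3.54 TPM. The differences of these last genes were -0.27 (95% confidence interval -0.99 to 0.45) for Kpna4 and -0.17 (-0.93 to 0.60) for Kpna6, intervals that hold 0 and changes of either sign. After median-ratio scaling or quantile normalization, Kpna7, Kpna3 and Kpna1 stayed above 0 and Xpo1, Kpnb1 and Cse1l below 0.

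**Figure D2:**
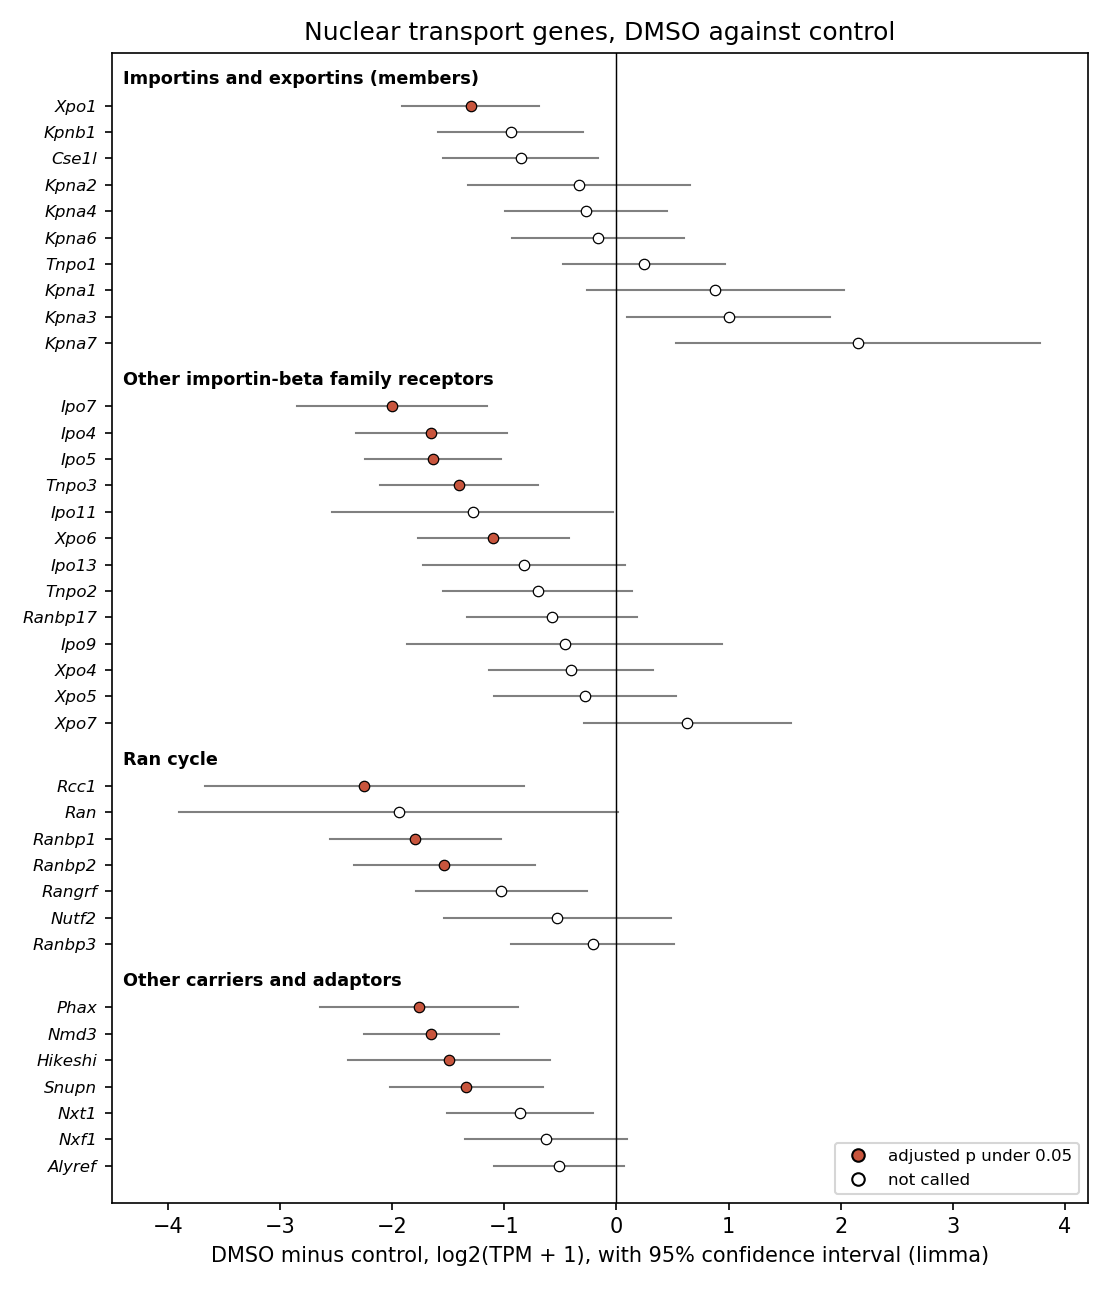
Difference between DMSO-treated and control embryos on the log2(TPM + 1) scale for each tested gene of the 4 lists, with the 95% confidence interval from limma and filled points for genes with an adjusted p-value under 0.05. Among the members only Xpo1 is filled, Kpna7 lies farthest to the right with a wide interval, and the points of the Ran cycle (6 of 7 after quantile normalization) and of the other carriers all lie left of 0. Over all 12038 genes tested, 6401 differences were below 0.

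Kpna2 (ENSMUSG00000018362, chromosome 11 from 106988629 to 106999541) is the member whose values are least certain. It was at 213 and 361 TPM in controls against 156 and 308 TPM with DMSO, with overlapping groups and a difference of -0.34 (95% confidence interval -1.33 to 0.66). Of the 31-base words of its GENCODE M21 transcripts, 64.2% also occur in Gm10184 (chromosome 17 from 89908462 to 89910449, minus strand), and 95.8% of the words of Gm10184 occur in Kpna2. The coding sequences, of 1587 bases each, differ at 2 bases. A stretch of 60 coding bases around the first of these is printed below, because it shows how little sequence separates the genes, with the differing base in capitals. It lies at chr11:106991273-106991332 for Kpna2 (exon 7) and at chr17:89909591-89909650 for Gm10184 (exon 1), on the minus strand of GRCm38 in both.
Kpna2: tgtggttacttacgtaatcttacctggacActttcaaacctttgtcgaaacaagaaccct
Gm10184: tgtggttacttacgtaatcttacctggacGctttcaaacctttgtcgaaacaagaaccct

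kallisto splits reads that fit both genes by an estimate, and the table listed Gm10184 at 500 and 479 TPM in controls against 305 and 251 TPM with DMSO, above Kpna2 in 3 of the 4 libraries. The sum of both rows, chosen after the values were seen, was 712 and 841 TPM in controls against 461 and 560.0 TPM with DMSO. The summed values did not overlap between groups, with a log2(TPM + 1) difference of -0.61 (standard error 0.25, limma adjusted p = 0.124). Gm10184 alone had a difference of -0.82 (standard error 0.25, limma adjusted p = 0.0578). No other member shared more than 14.5% of its words with other genes, the value of Tnpo1, and the share was 4.47% for Kpna7, 0.178% for Xpo1 and 6.19% for Kpnb1.

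Within a library, the makeup of the importin-alpha RNA does not depend on scaling between libraries. Kpna7 made up 3.93% and 0.972% of the summed TPM of the 6 importin-alpha genes in controls against 14.0% and 4.51% with DMSO. The group means were 2.45% ± 2.09 and 9.25% ± 6.70 (SD, n = 2), and the exact permutation test, two-sided, gave p = 0.333, the smallest that 2 against 2 allows. With Gm10184 in the sum, the share of Kpna7 was 1.69% and 0.486% in controls against 8.90% and 3.0% with DMSO. The log2 ratio of Kpna7 to Kpna2 was -3.85 and -6.28 in controls against -1.07 and -3.78 with DMSO. DMSO replicate 2 thus exceeded control replicate 1 by a small margin (exact permutation test, two-sided, p = 0.333). With Gm10184 added to Kpna2, this log2 ratio was -5.59 and -7.50 in controls against -2.63 and -4.64 with DMSO, and the groups lay farther apart.

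The direction of the total depends on the copy. The 6 importin-alpha genes summed to 377 and 478 TPM in controls against 533 and 497 TPM with DMSO, the DMSO libraries being higher. With Gm10184 included the sums were 876 and 957 TPM and 838 and 748 TPM, the DMSO libraries being lower. Set against Kpnb1, with which importin alpha works, the importin-alpha RNA was higher in the DMSO libraries either way. The ratio of the sum to Kpnb1 was 2.58 and 4.24 in controls against 7.38 and 8.17 with DMSO without Gm10184, and 6.0 and 8.5 against 11.6 and 12.3 with it. These sums and ratios were chosen after the values were seen and are given as values, with no test.

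**Figure D3:**
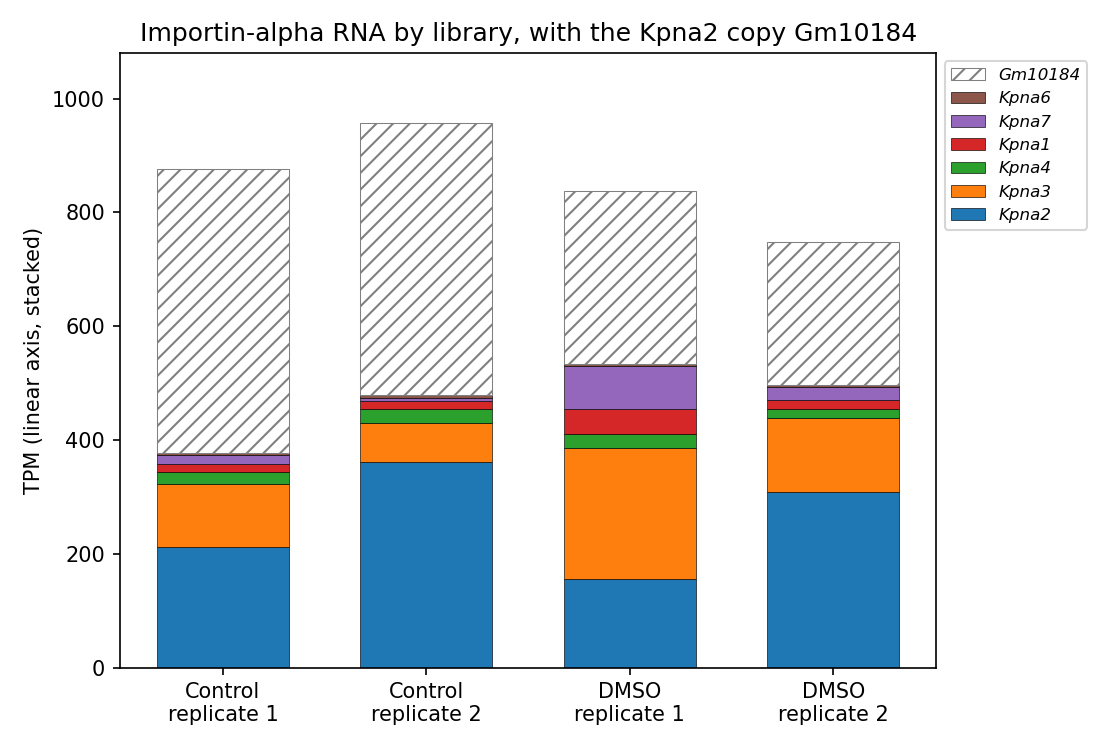
Stacked TPM of the 6 importin-alpha genes in each library on a linear axis, with the near-copy of Kpna2, Gm10184, hatched on top. The coloured part is taller in the DMSO libraries (533 and 497 TPM) than in the controls (377 and 478 TPM), and the whole bar is shorter (838 and 748 against 876 and 957 TPM).

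Of 16 other listed carriers of the importin-beta family 13 were tested, and limma called 5 lower and 0 higher. At an unadjusted p-value under 0.05 limma gave 6 lower and 0 higher, a share of 46.2% beside 40.2% of all genes tested in either direction. The 5 called lower were 38.5% of those tested beside the 14.1% of all genes called lower. That background includes many low genes. Among genes averaging 5 TPM or more, limma called 5 of 12 receptors lower, beside 1684 of all 7470 such genes. Of these 7470 genes, 3581 had an unadjusted p-value under 0.05 (limma). After quantile normalization limma called 3 of these receptors lower, and with no filter on low values it called 0 genes in the whole table. Of the 13, 12 had a negative difference, as had 6401 of all 12038 genes tested, and the median was -0.83 against -0.09 over all genes tested. Ipo4, which imports histones and ribosomal proteins, was at 218 and 253 TPM in controls against 62.2 and 88.0 TPM with DMSO, a difference of -1.65 (limma adjusted p = 0.0211). Of its words 53.1% also occur in Gm49378, which was not analysed here, so its value is uncertain. Ipo5, another importer of ribosomal proteins and histones, was at 153 and 144 TPM in controls against 43.4 and 51.0 TPM with DMSO, a difference of -1.64 (limma adjusted p = 0.0188). Both genes had replicates close together and groups far apart. Ipo7, which shares cargo with Ipo5, fell by 2.00 on the log2 scale, from 65.1 and 56.2 TPM to 10.5 and 19.6 TPM (limma adjusted p = 0.0221). Tnpo3, the importer of serine- and arginine-rich splicing factors, fell by 1.40 on the log2 scale, from 220.1 and 224 TPM to 66.9 and 103.6 TPM (limma adjusted p = 0.0281). Xpo6, the exportin of actin and profilin, fell by 1.10 on the log2 scale, from 97.5 and 116 TPM to 42.1 and 57.3 TPM (limma adjusted p = 0.0408). Xpo7 alone had a positive difference, 0.63 (95% confidence interval -0.29 to 1.55), and Xpot, the exportin of transfer RNA, was listed at 0 in all 4 libraries. Ipo8 and Ranbp6 had means below 1 TPM and were not tested.

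Of 8 genes of the Ran cycle, which keeps Ran bound to GTP in the nucleus and to GDP in the cytoplasm, 7 were tested and limma called 3 lower (42.9%) and 0 higher, beside 14.1% of all genes called lower. At an unadjusted p-value under 0.05 limma gave 4 lower and 0 higher, a share of 57.1% beside 40.2% of all genes tested in either direction. With the test limited to genes averaging 5 TPM or more, limma called 3 of 6 lower, beside 1684 of all 7470 such genes. The median difference of the 7 was -1.54. Rcc1, the exchange factor that loads Ran with GTP on chromatin, was at 9.22 and 6.44 TPM in controls, listed at 0 in DMSO replicate 1 and at 2.37 TPM in DMSO replicate 2 (difference -2.25, limma adjusted p = 0.0433). Ranbp1, a cytoplasmic cofactor that helps Ran hydrolyse GTP, fell by 1.79 on the log2 scale, from 74.3 and 89.8 TPM to 18.1 and 28.9 TPM (limma adjusted p = 0.0221), and 20.2% of its words occur in other genes. Ranbp2, a large protein of the cytoplasmic pore filaments that binds Ran, fell by 1.54 on the log2 scale, from 54.0 and 72.0 TPM to 16.3 and 26.6 TPM (limma adjusted p = 0.0304). Ran itself was at 19.4 and 36.1 TPM in controls against 1.86 and 16.9 TPM with DMSO. Its groups did not overlap, but with this spread the difference of -1.94 had a 95% confidence interval from -3.90 to 0.01 (limma adjusted p = 0.126). Of the words of Ran 18.8% occur in other genes, most of them in Gm13461, listed at 0 and 1.56 TPM in controls against 3.39 and 7.77 TPM with DMSO. The gap between the groups of Ran, 19.4 TPM in the lower control against 16.9 TPM in the higher DMSO library, is smaller than the Gm13461 value in that DMSO library, so its values are uncertain. After quantile normalization 6 of the 7 genes had a negative difference. There limma called 2 of them lower, and it also called 2 with a pseudocount of 0.1 and after median-ratio scaling. The remaining genes tested, Rangrf, Nutf2 and Ranbp3, were not called. Rangrf and Nutf2 share 86.0% and 43.6% of their words with other genes and are uncertain, and Nutf2-ps1, with 39.6% of the words of Nutf2, was at 74.3 and 47.5 TPM in controls against 115 and 75.3 TPM with DMSO. Rangap1, with a mean below 1 TPM, was not tested.

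Among 7 other carriers and adaptors limma called 4 lower (57.1%) and 0 higher, beside 14.1% of all genes called lower. At an unadjusted p-value under 0.05 limma gave 5 lower and 0 higher, a share of 71.4% beside 40.2% of all genes tested in either direction. In all 7 both DMSO libraries were below both controls, as they were for 38.7% of all genes tested. The median difference was -1.34. With the test limited to genes averaging 5 TPM or more, limma called 5 of the 7 lower, beside 1684 of all 7470 such genes. Nmd3, the adaptor by which Xpo1 exports the large ribosomal subunit, fell by 1.65 on the log2 scale, from 495 and 471 TPM to 136 and 172 TPM (limma adjusted p = 0.0188). Phax, the adaptor by which Xpo1 exports small nuclear RNA, fell by 1.76 on the log2 scale, from 66.6 and 95.4 TPM to 16.9 and 30.7 TPM (limma adjusted p = 0.0281). Snupn, which brings small nuclear ribonucleoproteins back into the nucleus together with Kpnb1, fell by 1.34 on the log2 scale, from 241 and 255 TPM to 79.7 and 119 TPM (limma adjusted p = 0.0291). Nmd3 and Snupn varied little between control replicates and did not come near them in either DMSO library. Hikeshi, the importer of heat shock protein Hsp70, fell by 1.49 on the log2 scale, from 65.4 and 36.4 TPM to 20.3 and 13.8 TPM (limma adjusted p = 0.0392). The mRNA export genes Nxf1, Nxt1 and Alyref had differences of -0.63, -0.86 and -0.51 and were not called. Without control replicate 1, without control replicate 2 or without DMSO replicate 1, limma called 0 genes of these 3 lists, and over all genes tested it then called 3, 3 and 15. Without DMSO replicate 2 it called 6, 4 and 3 of the lists lower, in the order given.

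**Figure D4:**
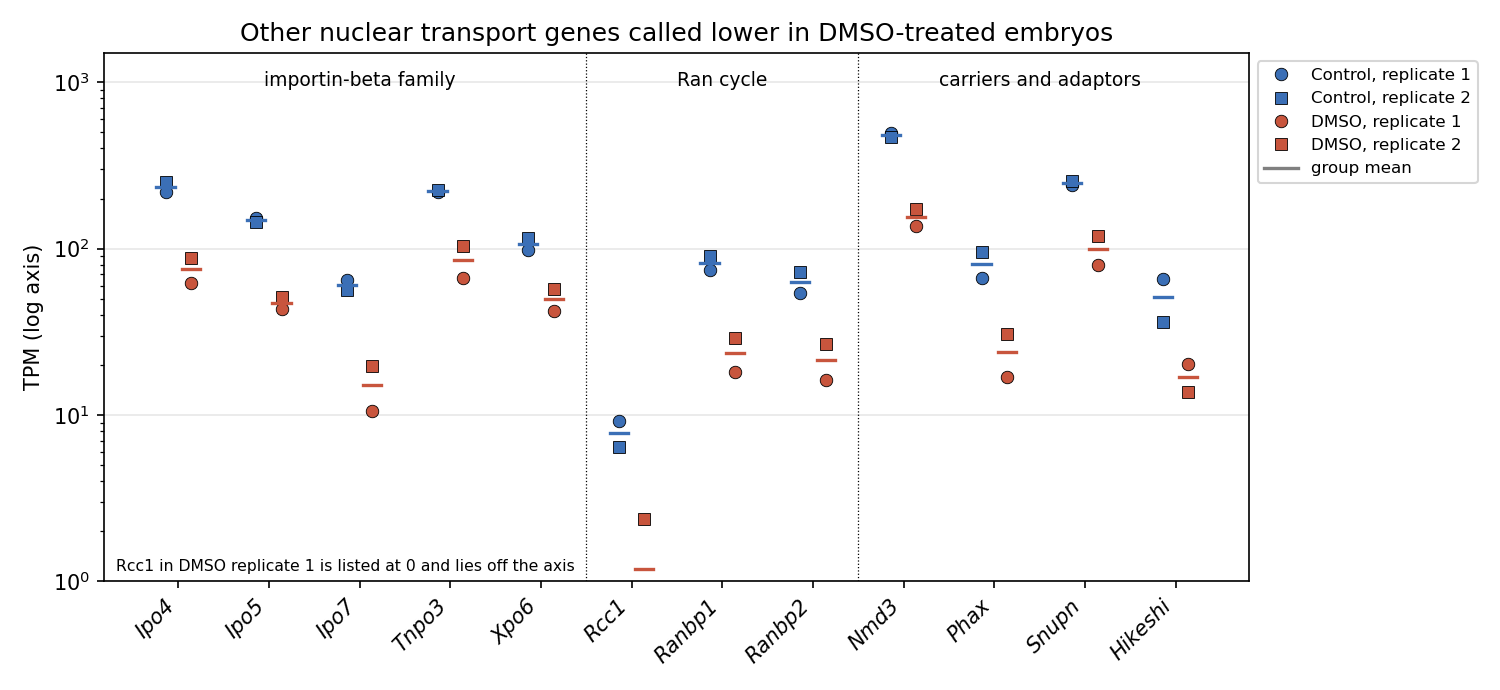
TPM in each library on a log axis of the 12 genes of the 3 other lists that limma called lower, with circles for replicate 1, squares for replicate 2 and a bar for each group's mean. In all 12 both DMSO libraries lie below both controls, as for 38.7% of all genes tested. The 12 were chosen as called lower, so this is no further support. Rcc1 in DMSO replicate 1, listed at 0, is off the axis.

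The genes most like Kpna7 across the 4 libraries were found by the Euclidean distance between deviations of log2(TPM + 1) from each gene's own mean, among 5264 other protein-coding genes averaging 10 TPM or more. They were Bach2 (distance 0.17), Gm3259 (0.21), Gng12 (0.22), Tgfb2 (0.24) and Eef2k (0.24). Bach2, a transcription factor, was at 11.6 and 2.83 TPM in controls against 55.9 and 16.5 TPM with DMSO. Tgfb2, a growth factor, was at 85.3 and 28.0 TPM in controls against 377 and 144 TPM with DMSO. Each of the 5 was higher in replicate 1 than in replicate 2 within each group, as Kpna7 was. The genes most like Kpna2 were Fubp1 (0.096), Hmg20b (0.12), Thop1 (0.13), Timm23 (0.16) and Ctu2 (0.19), which were higher in replicate 2 of each group. With 4 libraries such likeness is a description, and it includes what the libraries share by preparation.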

How the data were processed

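RNA of 2-cell embryos was measured in 4 libraries made with a low-input cDNA kit. The authors ran kallisto against Ensembl transcripts (GRCm38), summed transcripts per gene with tximport, and deposited TPM values, which are not counts. The count-based test of the study was therefore not repeated. The submitters' processing notes also name STAR, SAMtools and bedtools. Depth is unknown, and no counting error was derived.

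Gene names and coordinates came from GENCODE M21 (GRCm38), which named 29589 identifiers. It is a later annotation than the Ensembl release named in the study's methods, so the shared words are an approximation of those in the authors' index. The test took genes averaging 1 TPM or more, on log2(TPM + 1), so that differences of low genes are understated, with limma 3.58.1 in R 4.3.3 (eBayes with a mean-variance trend, Benjamini-Hochberg adjustment over all genes tested). The steps were tested on simulated data. Shared sequence was counted as 31-base words, on either strand, in transcripts of other genes, and coding sequences were aligned with edlib. Ratios were compared with the exact permutation test. Python 3.11.15, pandas 2.3.3, numpy 2.4.6 and matplotlib 3.10.9 were used.

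The members, the 3 lists of other transport genes and the tests were chosen with earlier results of these data known. All members, the called genes of the lists, and the 5 genes most like Kpna7 and Kpna2 are named. Alternatives were a pseudocount of 0.1, no filter, a minimum mean of 5 TPM, no trend, median-ratio scaling, quantile normalization, a replicate block and leaving out each library. Summing Kpna2 with Gm10184 was added after the values were seen.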

Additional observations from a re-analysis of the deposited data

How the results depend on the processing

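Another pseudocount, the scalings and leaving out a library can move the difference of a member, and under these the 10 differences kept their sign except for Kpna2 and Tnpo1, given here. The other alternatives change only its error or its adjustment. Without control replicate 1, control replicate 2 or DMSO replicate 1 limma called 3, 3 and 15 genes in all, so that a member not called there says nothing of stability. The number of genes called by limma over the table was 2470, and it was 5132 with the replicate block and 0 with no filter on low values, where 5368 genes had an unadjusted p-value under 0.05. It lay between 3 and 2091 without any 1 library. Members called lower were 0 with no filter, where 3 members had an unadjusted p-value under 0.05 and the limma adjusted p of Xpo1 was 0.102, 2 with a mean of at least 5 TPM, 3 with the block and from 0 to 1 without a library. Members called higher were 1 with a mean of at least 5 TPM, 2 with the block and from 0 to 2 without a library. The other importin-beta family receptors called lower were 0 with no filter, 3 after quantile normalization and from 0 to 6 without a library. For the Ran cycle these were 0 with no filter, 5 with the block and from 0 to 4, and for the other carriers and adaptors 0, 7 and from 0 to 3. The difference of Kpna2 changed sign without control replicate 2 (0.045) and without DMSO replicate 1 (0.15), and without a library it ranged from -0.82 to 0.15. That of Tnpo1 changed sign without DMSO replicate 1 (-0.015) and ranged from -0.015 to 0.50. The cause of these changes was not tested. With no filter 22257 genes were tested, and without a library the fit had 1 residual degree of freedom and the lone library of a group is assumed to vary like the other group. The median difference of all genes was -0.09, -0.05 after median-ratio scaling and 0.01 after quantile normalization, and 68.7% of calls were lower, 61.0% and 51.0% in these scalings.

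The groups share replicate numbers, but nothing says what a number stands for. As a check of pairing, what remained of replicate 1 after subtracting the group mean was compared between groups (r = 0.35 over 12038 genes, which are not independent replicates), and 6 of the 10 members had the same replicate higher in both groups. With the replicate block the members called were Xpo1, Kpnb1 and Cse1l lower and Kpna7 and Kpna3 higher, with limma adjusted p = 0.00267 for Kpna7, 0.00756 for Kpna3, 0.00985 for Kpnb1 and 0.0320 for Cse1l. TPM hold no depth, so it is not known how many reads stand behind low genes such as Kpna6 or Rcc1.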
